A study of Mus musculus with 26 samples.

Results

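The interferon-stimulated gene families were followed through the chemical reprogramming of mouse embryonic fibroblasts (MEF) towards pluripotent stem cells. They were taken by symbol from the expression table: every Ifi gene with a number, and the Ifit, Ifitm, Ifih, Isg, Oas, Irf, Gbp, Mx and Stat genes of the pathway, together with Usp18, Rsad2, Bst2, Ddx58, Dhx58 and Cmpk2. The rule took 63 of the 16718 genes in the table by symbol. The table's name marks it as already filtered, and the members were chosen with earlier results of these data known. The 63 genes comprised 11 Stat and Irf genes, 3 RNA sensors, Isg15 and its protease Usp18, 5 Ifit, 7 Oas, 7 Gbp, 10 Ifi200, 7 other Ifi, 5 Ifitm and 6 other effector genes.

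RNA was measured by sequencing, for which the labels name TRIzol extraction, TruSeq library construction and a NextSeq 500. There were 26 libraries: MEF at day 0 (1 library), reprogramming cells under all chemicals on days 6, 12, 18, 22, 30, 36 and 40 (1 library a day, here the full course), reprogramming cells minus Brdu on the same 7 days, reprogramming cells minus Chir on days 6, 12, 18, 22 and 30, and 6 libraries of chemically induced pluripotent stem cells (CiPSC). Brdu is bromodeoxyuridine, a thymidine analogue, and Chir is read here as the GSK3 inhibitor usually called by that name. The other chemicals, their doses, the mouse strain, the passage of the MEF and the origin of the 6 CiPSC libraries are not given in the sources used here.

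Cells that detect foreign nucleic acids secrete interferons, which bind receptors on the same or neighbouring cells. The receptor kinases phosphorylate STAT proteins, which join IRF9 and bind a promoter element called the ISRE, while STAT dimers formed after interferon gamma bind an element called GAS. The target genes encode proteins that sense, degrade or sequester viral RNA, block membrane fusion, or tether budding particles, and they include STAT2, IRF9 and IRF7 themselves. Fibroblasts respond readily to interferon, whereas pluripotent stem cells are known for a weak interferon response and for expressing some of these genes, the Ifitm family among them, without it.

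Short promoter stretches show the ISRE element where it was found. RefSeq promoter windows (build GRCm38.p6, 250 bases before to 50 bases after the start of transcription) were found for 50 of the 63 genes. The ISRE letters GAAANNGAAA, searched on both strands, occurred in 28 of those 50 (56%), against 3.99% of the 27025 genes with a window. The GAS letters TTCNNNGAA occurred in 11 (22%), against 9.55% of all genes. The stretches below are from genes whose values carry the comparisons that follow, each with up to 20 bases on either side, in the direction of transcription, with the ISRE letters in capitals. Where the element lies on the opposite strand it reads TTTCNNTTTC, and overlapping matches run together. A match describes letters and not binding.
Isg15, at chr4:156200855-156200916 on the minus strand, with 3 overlapping matches: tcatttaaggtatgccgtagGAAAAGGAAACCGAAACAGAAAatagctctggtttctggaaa
Ifit1, at chr19:34640765-34640833 on the plus strand: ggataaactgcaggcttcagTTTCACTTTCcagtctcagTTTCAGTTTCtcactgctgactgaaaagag
Ifit3, at chr19:34583353-34583436 on the plus strand: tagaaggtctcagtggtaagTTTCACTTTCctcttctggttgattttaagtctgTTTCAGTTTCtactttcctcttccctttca
Bst2, at chr8:71537567-71537622 on the minus strand: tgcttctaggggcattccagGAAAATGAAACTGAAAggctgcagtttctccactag
Oas1a, at chr5:120907526-120907565 on the minus strand: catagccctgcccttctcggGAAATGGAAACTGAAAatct
Stat2, at chr10:128270256-128270305 on the plus strand: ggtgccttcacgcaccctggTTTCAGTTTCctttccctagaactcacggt
Rsad2, at chr12:26456543-26456592 on the minus strand: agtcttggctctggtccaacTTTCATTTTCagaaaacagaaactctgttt
Gbp2, at chr3:142620584-142620633 on the plus strand: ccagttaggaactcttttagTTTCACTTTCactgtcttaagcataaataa
Ifitm2, at chr7:140955978-140956027 on the minus strand: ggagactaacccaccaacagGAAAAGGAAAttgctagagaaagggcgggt
The stretch printed for Ifit3 occurs with the same letters before the start of its neighbour Ifit3b. Several families also sit side by side in the genome (GRCm38): the 10 Ifi200 genes at chr1:173519717-174031810, the 5 Ifit genes at chr19:34550694-34650009, and the Gbp genes in a group of 4 at chr3:142530342-142638008 and a group of 3 at chr5:105014150-105139586. Near-identical members of these groups (the Ifi200 genes, Oas1a and its copies, Ifit3 and Ifit3b, Gbp2 and Gbp2b, the Ifitm genes) can share reads, so their separate values are uncertain.

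The deposited values are whole-number scores with the same distribution in every library: each library sums to between 4143561 and 4162600, and its median is 76 or 77. Depth is therefore unknown, and values are compared for 1 gene between libraries and not between genes. The labels fitted their markers: 8 fibroblast genes summed to 72841 in MEF and 101 to 408 in CiPSC, and 6 pluripotency genes summed to 13 in MEF and 23799 to 40131 in CiPSC. With 1 library a day, the days served as repeats of a course. They are successive states of cells and not separate samples of one state, nothing in the labels says that the courses were begun separately, and p-values measure only the spread between these libraries, which may be technical. All tests used limma on log2(score + 1), with Benjamini-Hochberg adjustment over all genes, a call at an adjusted p under 0.05, and standard errors (SE) after ±. Folds on this scale understate the change of low genes.

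**Figure D1:**
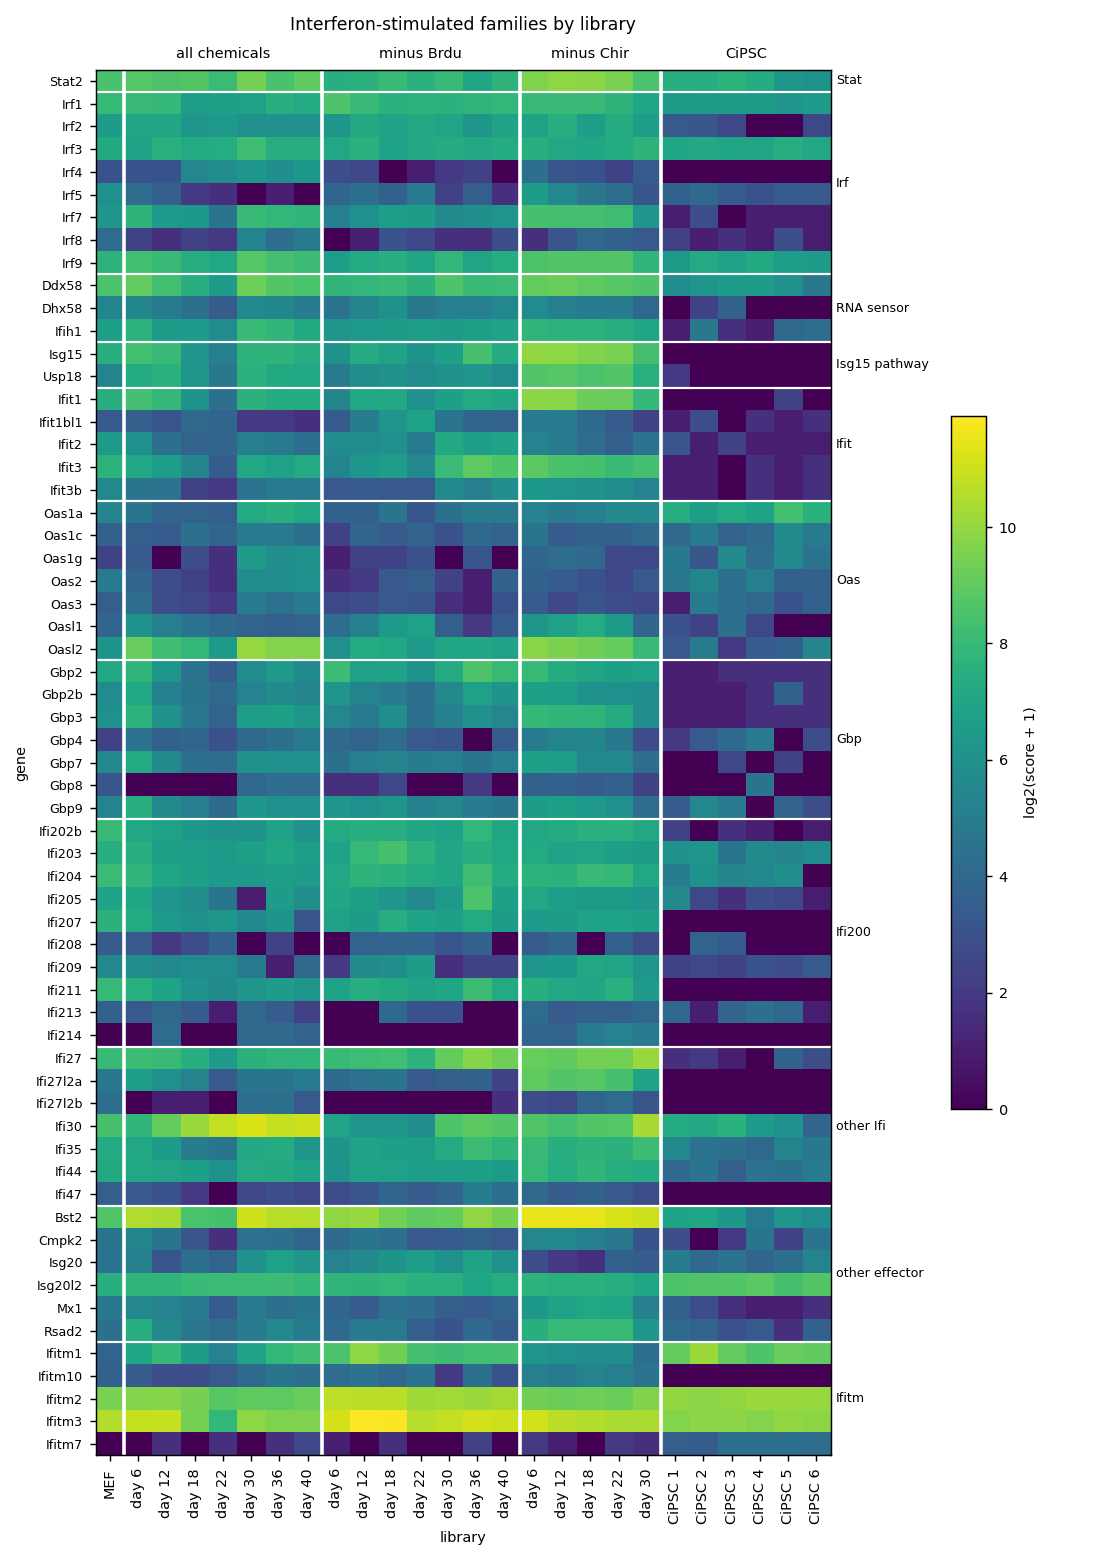
Level of the genes described here (rows, grouped by family) in each of the 26 libraries (columns, grouped by course), as log2(score + 1). The minus Chir columns are bright for Isg15, Ifit1 and Bst2, the CiPSC columns are dark in most rows outside the Ifitm family, and many rows of the full course are darkest on day 22.

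In the full course the lowest value fell on day 18 or 22 in 44 of the 63 genes (69.8%, against 30.6% of all genes). Isg15, a ubiquitin-like protein that is attached to other proteins after interferon, was listed at 178 in MEF and at 316, 262, 72, 34, 208, 216 and 170 on days 6, 12, 18, 22, 30, 36 and 40. Ifit1, which binds viral RNA caps, was listed at 180 in MEF and then at 330, 244, 70, 20, 203, 158 and 162. Usp18, the protease that removes Isg15 from proteins, was listed at 40 in MEF and then at 159, 192, 79, 26, 196, 148 and 134. All 3 had their lowest value on day 22.

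The score + 1 on day 30 was at least 2-fold that of day 22 in 41 genes (65.1%), against 12.5% of all genes. This pattern and the place of the lowest value were chosen after the values had been seen, and days 22 and 30 are 1 library each. In the minus Brdu course, 9 of the 61 genes above the filter (14.8%) reached that 2-fold difference, against 12.4% of all genes.

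**Figure D2:**
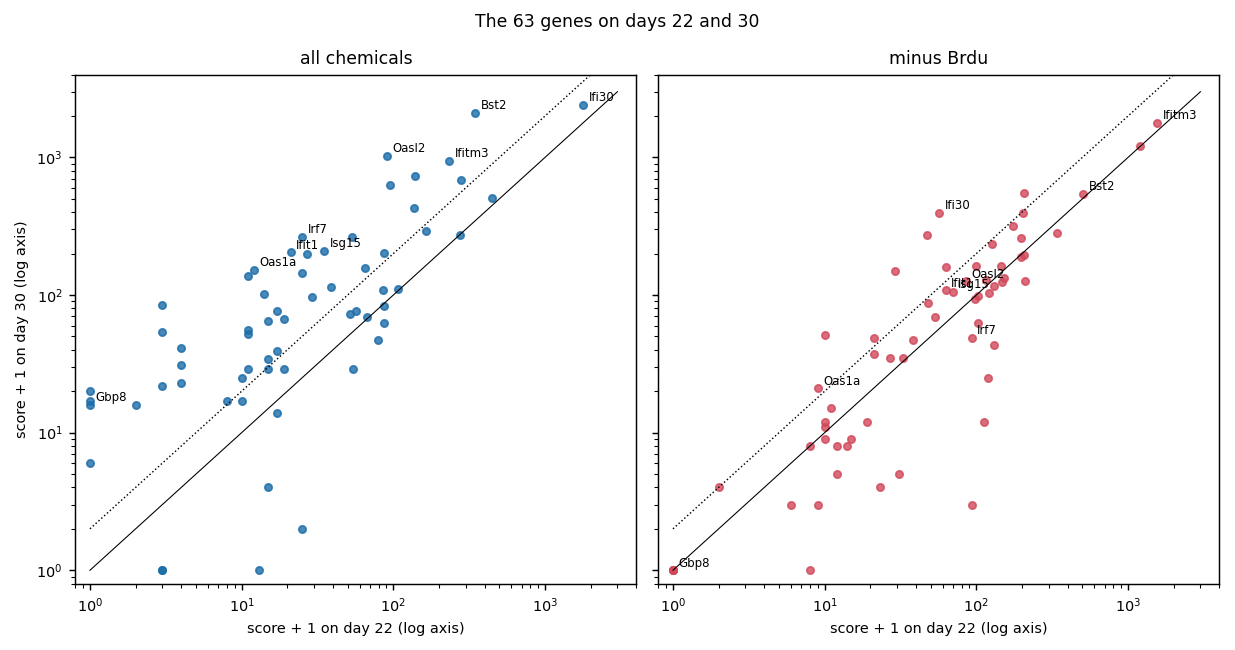
Score + 1 of the 63 genes on day 22 (x axis) and day 30 (y axis), both log axes, in the full course (left) and the minus Brdu course (right); each point is 1 gene, the solid line marks equal values and the dotted line a 2-fold rise. In the full course 41 points reach or pass the dotted line, and in the minus Brdu course 9.

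A straight line through MEF and the 7 full-course days described few of the genes. It called 3 members rising (4.76%, against 9.31% of all genes) and 3 falling (4.76%, against 7.42%). Irf4, otherwise known from lymphocytes, rose by 0.98 ± 0.18 log2 units per 10 days (adjusted p = 0.0093), from 7 in MEF to 81 on day 40. Ifi30, a lysosomal thiol reductase used in antigen processing, rose by 0.82 ± 0.14 (adjusted p = 0.0068), from 342 in MEF through 228 on day 6 to 2032 on day 40.

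Irf5, a mediator of Toll-like receptor signalling, fell by 1.42 ± 0.21 log2 units per 10 days (adjusted p = 0.0044), from 62 in MEF to 0 on days 30 and 40. Among the Ifi200 genes, which include sensors of DNA, Ifi207 fell by 0.80 ± 0.18 and Ifi204 by 0.40 ± 0.10. The Ifi207 call was lost without day 6 (adjusted p = 0.0529), and that of Ifi204 without MEF, day 6 or day 30, where its adjusted p reached 0.0916. Without MEF 7 members were called rising, and without day 6 only 1 was called falling. Stat2, Irf9, Irf7, Isg15, Ifit1, Bst2, Oasl2 and the other members named in every comparison were not called by the straight line.

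The rise after day 22 was tested in a comparison added after the data had been seen, with days 30, 36 and 40 against days 12, 18 and 22 of the full course. It called 13 members higher (20.6%, against 6.81% of all genes) and 1 lower (1.59%, against 7.79%), and the median difference was 1.01 log2 units for the members and 0.01 for all genes. The Oas enzymes, which make oligoadenylates that switch on RNase L, made up 5 of the 13. Oas1a was listed at 13, 13 and 11 on days 12, 18 and 22 and at 152, 174 and 140 on days 30, 36 and 40, a rise of 3.55 ± 0.23 (adjusted p = 6.7e-04). Oasl2 went from 305, 236 and 90 to 1026, 820 and 820, a rise of 2.24 ± 0.42 (adjusted p = 0.014). Oas1g (4.65 ± 0.69), Oas2 (3.62 ± 0.40) and Oas3 (2.29 ± 0.39) rose with them.

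Of the signalling genes, Irf7, the factor that amplifies type I interferon, was listed at 86, 80 and 24 and then at 264, 236 and 224, a rise of 2.11 ± 0.46 (adjusted p = 0.023). Ifih1, the long double-stranded RNA sensor MDA5, rose from 94, 82 and 52 to 264, 228 and 151, by 1.49 ± 0.30 (adjusted p = 0.018). The remaining calls included Gbp8, Irf8, Ifi27l2b, Isg20 and Ifitm10 upward and Ifit1bl1 downward. Isg15 (1.18 ± 0.64), Ifit1 (1.28 ± 0.77), Bst2 (1.62 ± 0.49) and Ddx58 (1.41 ± 0.42) were not called, with adjusted p between 0.065 and 0.3. For Isg15 and Ifit1 the value on day 12 lay above those on days 30, 36 and 40.

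Leaving out 1 day at a time gave 9 to 24 members higher in that comparison, the 24 without day 12 and the 9 without day 18, 30 or 36. No member was called lower without day 18, 22, 30, 36 or 40. Markers of several cell types moved over the same step. Of the 6 pluripotency markers Nanog and Sox2 were called higher, with a summed level of 86 to 1021 on days 12 to 22 and 877 to 4308 on days 30 to 40. Twist1 and Prrx1 were called lower among 8 fibroblast markers, Sox7 among 6 of primitive endoderm and Kdr among 4 tested of the endothelium. No marker of these lists was called higher. The 8 fibroblast markers nevertheless summed to 39449, 15747 and 8926 on days 12, 18 and 22, with the lowest sum on day 22. On days 30, 36 and 40 they summed to 23270, 22320 and 23377. The fall and return of this sum lay mostly in collagens. Col3a1 was listed at 21988, 3102 and 518 and then at 11346 on each day. Col1a1, Col1a2 and Thy1 were also lowest on day 22. Pdgfrb did not return, at 348, 114 and 78 and then 52, 90 and 80. Pdgfra was listed at 3850, 6088 and 5536 and then at 5536, 3094 and 3426. The 14 macrophage markers summed to 534 to 600 and then to 226 to 229, with Cd14 called lower and Csf1r higher. The part of these cells in the step was not tested.

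The step after day 22 was also compared between the full course and the minus Brdu course. A test of the difference between courses, also added after the data had been seen, called 15 members with a smaller step than in the full course (23.8%, against 5.27% of all genes) and 1 with a larger step (1.59%, against 5.53%). Oas1a without Brdu was listed at 12, 24 and 8 on days 12, 18 and 22 and at 20, 30 and 28 on days 30, 36 and 40, and its step was lower by 2.65 ± 0.50 (adjusted p = 0.007). Irf7 without Brdu was listed at 62, 98 and 92 and then at 48, 60 and 72, a step lower by 2.58 ± 0.56 (adjusted p = 0.014). Oasl2 without Brdu was listed at 162, 139 and 84 and then at 125, 130 and 117, a step lower by 2.24 ± 0.52 (adjusted p = 0.019).

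Ifi30 was the member with the larger step, by 1.67 ± 0.46 (adjusted p = 0.037), from 72, 73 and 56 to 395, 482 and 417 without Brdu. The number with a smaller step ranged from 5, without day 18 or 40, to 16, without day 12, with 9, 7 and 8 without days 22, 30 and 36. Ifi30 was not called without day 18, 30, 36 or 40. A straight-line difference in trend between the 2 courses called no member higher (6.0% of all genes) and only Gbp8 lower (5.49% of all genes), by 1.95 ± 0.48 per 10 days (adjusted p = 0.0207), and that call was lost without day 12 or day 40. At an unadjusted p under 0.05, 10 members passed that test in either direction, and the share of all genes was not computed. In the test of the step between courses, the markers called were 2 higher and 2 lower of 8 for fibroblasts, 1 lower of 6 for pluripotency, 1 higher of 6 for primitive endoderm and 1 higher of 12 tested for macrophages, and their part in it was not tested.

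**Figure D3:**
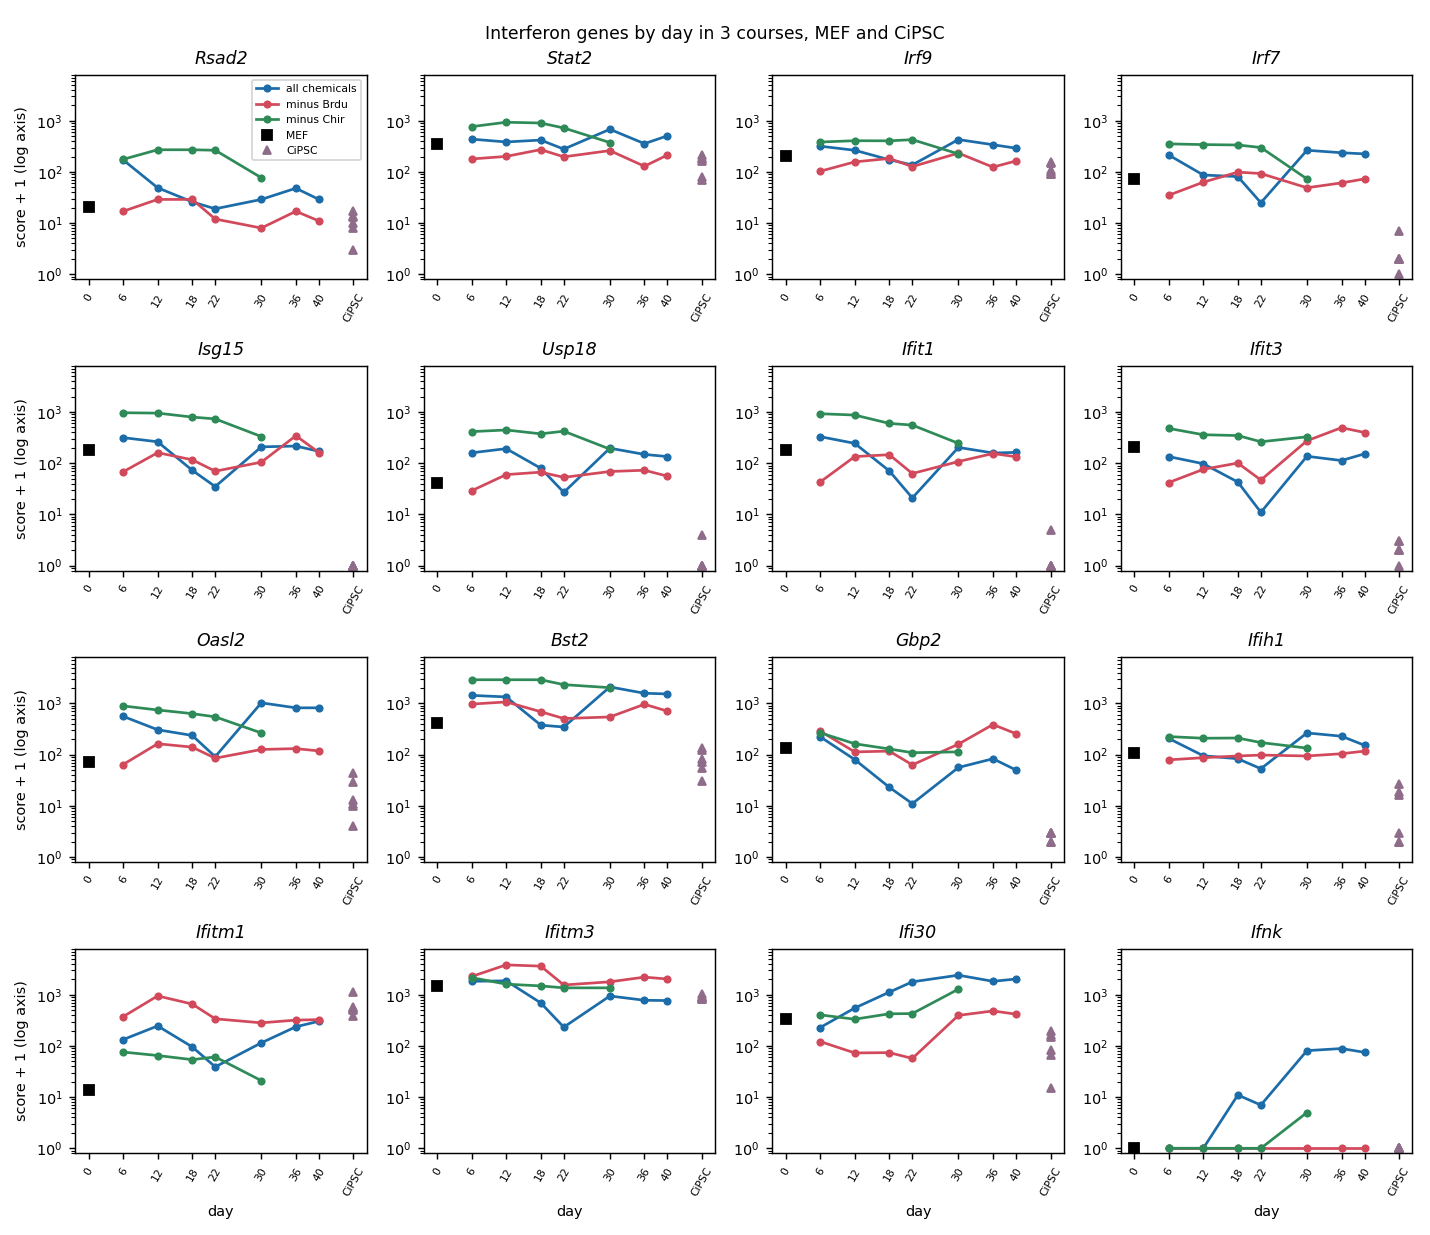
Score + 1 (y axis, log scale) against day (x axis) for 15 members and Ifnk in the full course (blue), minus Brdu (red) and minus Chir (green), with MEF as a black square at day 0 and the 6 CiPSC libraries as triangles at the right. Each point is 1 library; most blue lines dip on day 22, and the green lines of Isg15, Ifit1 and Bst2 lie above the blue lines on days 6 to 22.

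Of 21 interferon genes looked for, the table listed 1, Ifnk (interferon kappa, a type I interferon of keratinocytes). The table's name marks it as filtered, so a gene missing from it need not have been silent. Ifnk itself may have passed that filter only through the full course. Ifnk was listed at 0 in MEF and on days 6 and 12 of the full course, and then at 10, 6, 80, 88 and 74 on days 18, 22, 30, 36 and 40. It was listed at 0 in all 7 minus Brdu libraries, on days 6 to 22 minus Chir, with 4 on day 30, and at 0 in all 6 CiPSC libraries. In the full course it rose by 1.95 ± 0.26 log2 units per 10 days (adjusted p = 0.0027). Over the same days 30 to 40, Oas1a, Oasl2, Irf7 and Ifih1 were high in the full course. On day 6 of that course, with Ifnk at 0, Oasl2, Irf7 and Ifih1 were also listed at 559, 213 and 206, and Oas1a at 24. On day 6 minus Chir, again with Ifnk at 0, they were at 893, 352 and 224, and Oas1a at 38. Whether Ifnk bears on these genes was not tested.

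Of the 9 receptor and kinase genes 5 were higher and 1 was lower without Brdu, where 21.1% and 21.5% of all genes were called. Ifngr1, a chain of the interferon gamma receptor, was listed at 134 to 194 in the full course and 330 to 750 without Brdu, so the courses did not overlap, and it was higher by 1.75 ± 0.19 (adjusted p = 5.3e-04). Ifnar1 and Ifnar2, the chains of the type I receptor, were higher by 1.04 ± 0.12 (adjusted p = 7.3e-04) and 1.61 ± 0.26 (adjusted p = 0.002). The kinase Tyk2 was lower by 1.05 ± 0.20 (adjusted p = 0.0038). Ifnlr1, a chain of the interferon lambda receptor, differed by -0.75 ± 0.39 and was not called, at 22, 15 and 20 on days 30, 36 and 40 against 54, 56 and 48. Without Chir 1 of the 9 was called, the kinase Jak2, higher by 0.58 ± 0.17 (adjusted p = 0.043), where 13.5% of all genes were called higher.

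Without Chir part of the families stood above the full course, among them Isg15, Usp18, 3 of the 5 Ifit genes, Bst2 and Rsad2, while none of the Oas genes or RNA sensors was called. Over the 5 shared days 20 of the 63 were called higher (31.7%, against 13.5% of all genes) and 1 lower (1.59%, against 12.9%). The median difference was 0.78 log2 units for the members and 0.01 for all genes, and 52 members had a positive difference. On every shared day 19 members were above the full course (30.2%, against 18.2% of all genes). The calls depended on the days used: none of the 63 was called higher without day 18 (25 genes called in the whole table), 3 without day 22 (226 in the whole table) and 10 without day 12.

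Isg15 was listed at 970, 954, 798, 735 and 332 on days 6, 12, 18, 22 and 30 without Chir, against 316, 262, 72, 34 and 208 in the full course. The lowest value without Chir lay above the highest of the full course on these days, and the difference was 2.40 ± 0.51 (adjusted p = 0.019, and 0.0813 at most with 1 day left out). Its protease Usp18, which also damps the type I receptor, was listed at 414, 446, 375, 422 and 188 against 159, 192, 79, 26 and 196, higher by 1.75 ± 0.50 (adjusted p = 0.041) and on 4 of 5 days. Day 30 was the exception for Usp18. The Isg15 call was lost without day 18 or 22, and that of Usp18 without day 6, 12, 18 or 22 (adjusted p up to 0.1327).

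Ifit1 was listed at 928, 874, 600, 556 and 244 without Chir against 330, 244, 70, 20 and 203, higher by 2.28 ± 0.57 (adjusted p = 0.028) and on 5 of 5 days, a call lost without day 12, 18 or 22 (adjusted p up to 0.1033). Ifit3, its partner in the same complex, was listed at 479, 360, 347, 262 and 328 against 134, 97, 42, 10 and 136, higher by 2.51 ± 0.45 (adjusted p = 0.015), with no overlap. Ifit3b was higher by 2.36 ± 0.51. The Ifit3 call was lost without day 18, and that of Ifit3b without day 18 or 22 (adjusted p up to 0.0707 and 0.0819), while Ifit2 (-0.12 ± 0.31) and Ifit1bl1 (0.57 ± 0.41) were not called. The Ifit family was thus split between 3 called and 2 not called members.

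Of the transcription factors, Stat2 (0.74 ± 0.32), Irf9 (0.57 ± 0.35), Irf7 (1.29 ± 0.68), Irf1 (0.55 ± 0.23) and Irf3 (-0.10 ± 0.20) were not called. Among the Irf genes 1 of 9 was called, Irf5, listed at 92, 44, 25, 19 and 8 against 18, 11, 3, 2 and 0, higher by 2.56 ± 0.33 (adjusted p = 0.0088), a call lost without day 18 (adjusted p = 0.0585).

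Bst2, the tetherin that holds budding virions on the cell surface, was listed at 2902, 2902, 2902, 2328 and 2032 without Chir against 1436, 1340, 376, 345 and 2100. Its difference was 1.55 ± 0.44 (adjusted p = 0.038), on 4 of 5 days, and the call was lost without day 12, 18 or 22 (adjusted p up to 0.1312). Equal scores on 3 days are what equal ranks give in a table with 1 shared distribution. Rsad2, the antiviral enzyme viperin, was higher by 2.22 ± 0.53, and Mx1, an antiviral GTPase, by 1.72 ± 0.46. Gbp2, a guanylate-binding GTPase induced by interferon gamma, was listed at 266, 162, 128, 108 and 112 against 222, 79, 22, 10 and 55, higher by 1.62 ± 0.44 (adjusted p = 0.034) and on 5 of 5 days, a call lost without day 12, 18, 22 or 30 (adjusted p up to 0.1216).

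The largest difference was that of Ifi27l2a, a small membrane protein of the Ifi27 group, listed at 514, 416, 452, 346 and 116 against 100, 63, 39, 9 and 24. It was higher by 3.18 ± 0.42 (adjusted p = 0.0092), with no overlap, a call lost without day 18 (adjusted p = 0.0589). Ifi27 was higher by 1.84 ± 0.32, Ifi35 by 1.73 ± 0.37 and Ifi44 by 0.78 ± 0.23. In the Ifi200 group 4 of 10 were called, all higher, among them Ifi214 (2.91 ± 0.88). It was listed at 14, 13, 28, 38 and 30 without Chir against 0, 17, 0, 0 and 16, higher on 4 of 5 days. The Ifi214 call was lost without day 6, 18, 22 or 30 (adjusted p up to 0.157).

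The member called lower was Isg20, an exonuclease that degrades viral RNA, listed at 6, 3, 2, 12 and 10 without Chir against 36, 8, 20, 14 and 64, a difference of -1.83 ± 0.46 (adjusted p = 0.029), a call lost without day 6, 18, 22 or 30 (adjusted p up to 0.1053). None of the 7 Oas genes and none of the 3 RNA sensors was called, with Oasl2 at 0.80 ± 0.57, Ddx58 at 0.78 ± 0.40 and Ifih1 at 0.66 ± 0.38. Of the Ifitm genes only Ifitm10 was called (1.70 ± 0.37), while Ifitm1 (-1.07 ± 0.43), Ifitm2 (0.01 ± 0.20) and Ifitm3 (0.84 ± 0.37) were not. At an unadjusted p under 0.05, 32 members of the 63 passed, and the share of all genes at that threshold was not computed.

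Of 52 further interferon-induced genes in the table, 16 were higher (against 13.5% of all genes) and 1, Trim25, was lower (against 12.9%) without Chir. They included immunity-related GTPases: Iigp1 was listed at 916, 891, 825, 722 and 198 against 234, 204, 130, 44 and 65, higher by 2.47 ± 0.33 (adjusted p = 0.0095), and Tgtp2 was higher by 2.55 ± 0.35. Phf11d was higher by 1.74 ± 0.26. None of the 13 sensors and adaptors outside the families was called, and 2 of 14 negative regulators were higher, Samhd1 (0.75 ± 0.17) and Trex1 (0.80 ± 0.19). The regulators were thus called higher about as often as all genes, which is no result about that list.

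The summed level of the macrophage markers differed in this comparison. Over the 14 markers in the table it came to 713 to 840 without Chir and 227 to 600 in the full course on the same days. Lyz2 was listed at 97 to 301 against 8 to 58, and 2 of 14 markers, Lyz2 and C1qb, were called higher. With 13.5% of all genes called higher, that count is no result about the list. Cd68 was lower without Chir on days 12, 18 and 22, at 72, 93 and 136 against 74, 228 and 330. Cd14 was lower on day 12, at 308 against 376. The median difference of the 14 was 1.18 log2 units. The complement genes C1qa and C1qc were low in both courses, at 0 to 8 and 0 to 5 without Chir against 0 and 0 to 1. Ptprc was listed at 0 to 22 against 0 to 15. Both lymphoid markers in the table were at 0 in every course library. Fibroblast markers summed to 6612 to 29065 against 8926 to 45302, with 3 of 8 called lower. Primitive endoderm markers were called lower in 5 of 6 (median -3.12 log2 units) and pluripotency markers in 4 of 6 (median -2.31). Of 5 endothelial markers 1 was higher and 1 lower. The part of such cells in the result was not tested, and in bulk RNA fewer cells of a type and less RNA per cell cannot be told apart.

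**Figure D4:**
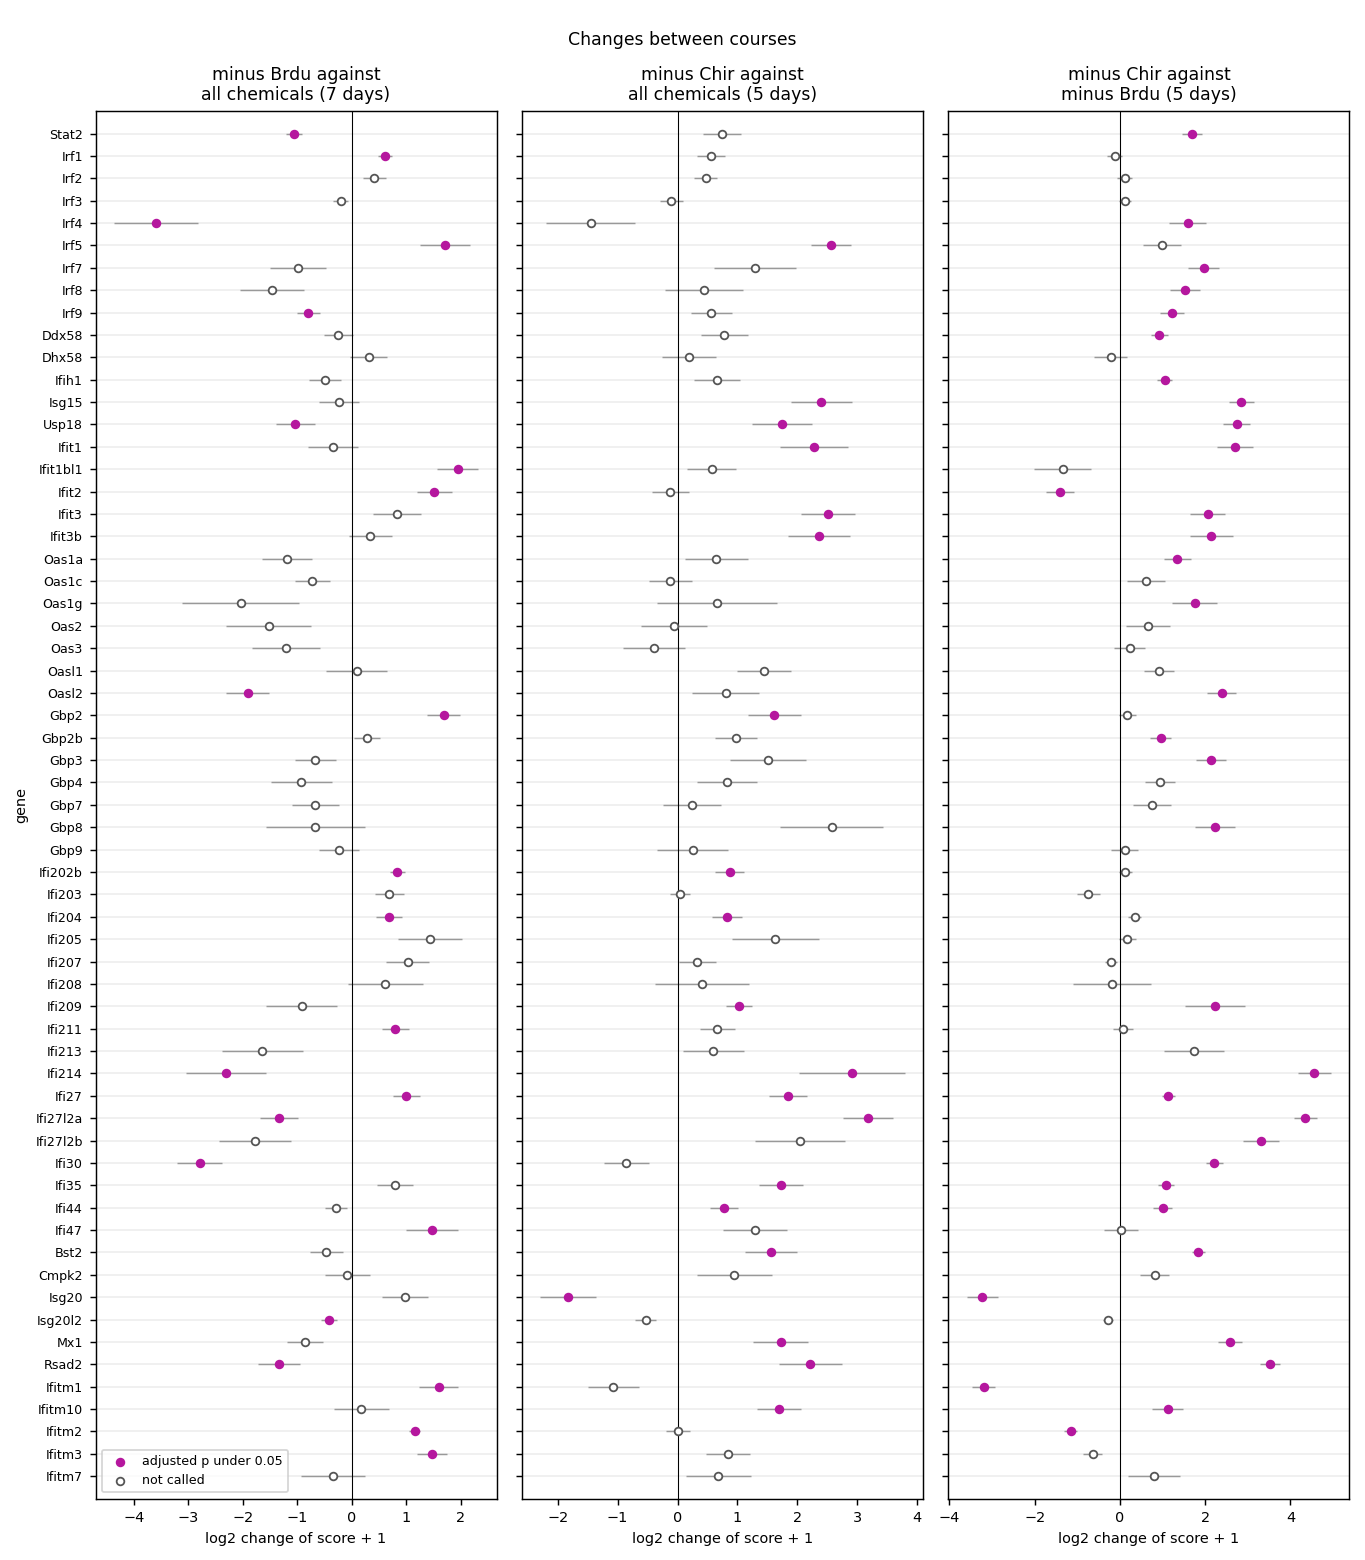
Difference in log2(score + 1) of the genes described here between courses (x axis; bars are ± 1 SE), for minus Brdu against the full course (7 days), minus Chir against the full course (5 days) and minus Chir against minus Brdu (5 days). Filled points passed an adjusted p under 0.05; most of them lie right of 0 in the middle and right panels, with Ifitm1 and Isg20 farthest to the left on the right.

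Without Brdu the members were called about as often as other genes. Of the 63 genes 13 were called higher (20.6%, against 21.1% of all genes) and 11 lower (17.5%, against 21.5%), so these counts are no result about the families. Members above the full course included 3 Ifitm genes, Gbp2 and Ifit2, and those below it Stat2, Irf9, Oasl2 and Ifi30. The median difference was -0.29 log2 units for the members and 0.02 for all genes. On days 6 to 30 alone, 7 were called higher and 2 lower, and 7 were called lower without day 30 or without day 36.

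The Ifitm genes, whose proteins keep viruses from fusing with the cell membrane, were higher in 3 of 5 cases and never lower. Ifitm2 was listed at 841, 862, 696, 444, 510, 490 and 574 in the full course and at 1684, 1650, 1614, 1192, 1209, 1103 and 1256 without Brdu. The 2 courses did not overlap, and the difference was 1.16 ± 0.10 (adjusted p = 3.2e-04). Ifitm3 was higher on 7 of 7 days, at 1553 to 3841 against 232 to 1872, by 1.47 ± 0.27 (adjusted p = 0.0033). Ifitm1 was listed at 282 to 950 against 38 to 303 and was higher on 7 of 7 days, by 1.60 ± 0.35 (adjusted p = 0.007).

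Gbp2 was listed at 287, 112, 116, 62, 159, 386 and 255 without Brdu, against 222, 79, 22, 10, 55, 82 and 49 in the full course. It was higher on 7 of 7 days, by 1.69 ± 0.30 (adjusted p = 0.0028), while no other Gbp gene was called. Irf1, an early target of interferon gamma, was higher on 7 of 7 days, by 0.61 ± 0.13 (adjusted p = 0.0064), at 193 to 394 against 101 to 260. Ifit2 was higher by 1.52 ± 0.33 (adjusted p = 0.0062) and Ifit1bl1 by 1.95 ± 0.37 (adjusted p = 0.0039), each on 6 of 7 days, and Irf5 by 1.72 ± 0.46.

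Stat2 and Irf9, which act together at the ISRE, moved the other way. Stat2 was listed at 178, 200, 272, 196, 260, 128 and 213 without Brdu against 436, 384, 418, 278, 680, 356 and 506, lower on 7 of 7 days without overlap, by -1.06 ± 0.14 (adjusted p = 0.001). Irf9 was listed at 102 to 232 against 136 to 428, lower on 6 of 7 days, by -0.80 ± 0.21 (adjusted p = 0.015). For Irf9 day 18 was the day on which the full course was lower.

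Oasl2 was listed at 63, 162, 139, 84, 125, 130 and 117 without Brdu against 559, 305, 236, 90, 1026, 820 and 820, lower on 7 of 7 days by -1.91 ± 0.40 (adjusted p = 0.0055). Ifi30 was listed at 121, 72, 73, 56, 395, 482 and 417 against 228, 550, 1124, 1791, 2414, 1832 and 2032, lower on 7 of 7 days by -2.79 ± 0.42 (adjusted p = 0.0014). Irf4, at 0 to 6 against 7 to 81, was lower by -3.60 ± 0.78 (adjusted p = 0.0063) without overlap. Rsad2 was lower by -1.34 ± 0.38, a call lost without day 30 or 36, where its adjusted p reached 0.0539. Usp18 was lower by -1.03 ± 0.36 (adjusted p = 0.043), a call lost without day 6, 12, 30, 36 or 40, where it reached 0.1.

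Ifi27l2a was listed at 4 to 24 without Brdu and 9 to 100 in the full course, lower by -1.33 ± 0.35 (adjusted p = 0.015). Other calls hung on single days. Ifi214, at 0 in all 7 libraries without Brdu and at 0 to 17 in the full course, was not called without day 12, 30, 36 or 40 (adjusted p up to 0.0869). Ifi47, higher by 1.47 ± 0.48, was not called without day 18, 22, 30, 36 or 40 (adjusted p up to 0.085). Isg15 (-0.24 ± 0.36), Ifit1 (-0.34 ± 0.46), Ifit3 (0.83 ± 0.44), Bst2 (-0.46 ± 0.30), Irf7 (-0.99 ± 0.52), Irf3 (-0.20 ± 0.14), Ddx58 (-0.25 ± 0.26) and Ifih1 (-0.49 ± 0.29) were not called.

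Among the 52 further interferon-induced genes, 2 were higher (against 21.1% of all genes) and 15 lower (against 21.5%) without Brdu. Zc3hav1, the zinc-finger antiviral protein, was listed at 184 to 422 against 516 to 1368, without overlap, lower by -1.53 ± 0.11 (adjusted p = 2.2e-04). Trim25, its ubiquitin ligase partner, was lower by -1.88 ± 0.20 (adjusted p = 5.3e-04), and Rnf114 by -0.73 ± 0.14 (adjusted p = 0.0036). Of 13 sensors and adaptors 4 were higher and 1 lower, and of 14 negative regulators 1 was higher and 4 were lower. Beside the same shares of all genes, such small counts are no result about these lists. Fibroblast markers moved with this comparison, at sums of 34109 to 70901 without Brdu and 8926 to 45302 in the full course, with 5 of 8 called higher. The 14 macrophage markers summed to 247 to 542 against 226 to 600, with 3 higher and 2 lower of the 12 tested. Primitive endoderm markers were called lower in 6 of 6 (median -4.69 log2 units) and pluripotency markers in 4 of 6 (median -4.24). Of 4 endothelial markers tested 1 was higher and 2 were lower. The part of any of these cell types was not tested.

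The 2 shortened cocktails were also compared directly, over the 5 shared days and with no library of the full course. Minus Chir stood above minus Brdu in 31 members (49.2%, against 16.9% of all genes) and below it in 5 (7.94%, against 15.2%), with a median difference of 0.95 log2 units for the members and 0.01 for all genes. On every shared day 28 members were higher minus Chir (44.4%, against 19.6% of all genes). With 1 day left out, 22 to 29 members were called higher. Those called lower numbered 3 without day 18 or day 22. Cell type markers differed as well: fibroblast markers summed to 6612 to 29065 minus Chir and 34109 to 70901 minus Brdu, without overlap, and 7 of 8 were called lower. Macrophage markers summed to 713 to 840 against 247 to 542, also without overlap, with 3 of 14 higher (Lyz2, Laptm5 and Csf1r). Of 5 endothelial markers 3 were higher, and of 6 primitive endoderm markers 4 were higher and 1 lower. The part of these cells in the comparison was not tested.

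Rsad2 was listed at 175, 270, 270, 264 and 76 minus Chir and at 16, 28, 28, 11 and 7 minus Brdu, a difference of 3.51 ± 0.23 (adjusted p = 2.0e-04). Stat2 differed by 1.69 ± 0.24 (adjusted p = 0.0028), at 374 to 934 against 178 to 272. Isg15 differed by 2.85 ± 0.29 (adjusted p = 8.7e-04), Usp18 by 2.73 ± 0.31, Ifit1 by 2.70 ± 0.42, Oasl2 by 2.39 ± 0.34 and Bst2 by 1.84 ± 0.15. In each of these 7 genes the lowest minus Chir value lay above the highest minus Brdu value.

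Among sensors and transcription factors, Ifih1 differed by 1.05 ± 0.17, Irf7 by 1.96 ± 0.36, Irf9 by 1.22 ± 0.27 and Ddx58 by 0.92 ± 0.20. The calls of Irf9 and Ddx58 were lost without day 18 or day 22 (adjusted p up to 0.0567 and 0.0514). Among the Ifi27 group, Ifi27l2a differed by 4.35 ± 0.28 and Ifi27l2b by 3.31 ± 0.42, and Ifi214, at 0 without Brdu, by 4.56 ± 0.39. Gbp3, at 52 to 246 against 20 to 58, differed by 2.14 ± 0.36 (adjusted p = 0.0049).

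The 5 that were lower minus Chir included Isg20 (-3.23 ± 0.36), Ifitm1 (-3.20 ± 0.27), Ifit2 (-1.41 ± 0.34) and Ifitm2 (-1.16 ± 0.15). Ifitm1 was listed at 75, 64, 53, 60 and 20 minus Chir and at 372, 950, 658, 338 and 282 minus Brdu, with no overlap. Isg20 was listed at 6, 3, 2, 12 and 10 against 38, 48, 70, 102 and 62. Ifit2 was not called without day 18 or 22 (adjusted p up to 0.0754). Gbp2 (0.17 ± 0.20), Irf1 (-0.12 ± 0.18), Irf3 (0.12 ± 0.15) and Ifitm3 (-0.64 ± 0.22) were not called. Of the 52 further interferon-induced genes 26 were higher minus Chir (against 16.9% of all genes), among them Tgtp2 (4.74 ± 0.69). None was lower (against 15.2%).

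Called members were found both with and without the ISRE letters. Minus Chir against the full course, 8 of the 28 genes with the letters and 6 of the 22 without were called higher, with medians of 0.70 and 0.73. Minus Chir against minus Brdu, 14 of 28 with the letters and 10 of 22 without were called higher, with medians of 0.94 and 0.95. These counts are descriptions, and promoters without the letters in this window may hold them elsewhere.

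On day 6 the 3 courses already stood apart from MEF to different extents, each by 1 library. The score + 1 was at least 2-fold that of MEF in 16 members of the full course (25.4%, against 18.6% of all genes), in 6 minus Brdu (9.52%, against 14.8%) and in 26 minus Chir (41.3%, against 17.5%). Oasl2 went from 70 in MEF to 559, 63 and 893 on day 6 of the full, minus Brdu and minus Chir courses. Usp18 went from 40 to 159, 28 and 414. These comparisons have no replicate check.

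Of the 63 genes, 9 were listed at 0 in all 6 CiPSC libraries (14.3%, against 3.33% of all genes): Isg15, Ifi207, Ifi211, Ifi214, Ifi27l2a, Ifi27l2b, Ifi47, Ifitm10 and Irf4. On day 40 of the full course these were listed at 170, 8, 74, 13, 28, 9, 5, 20 and 81, and no fold is given for them. The MEF library lay above every CiPSC library in 43 members (68.3%, against 32.0% of all genes). Day 40 lay above every CiPSC library in 46 (73%, against 29.3%).

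Of the other 54 members, 23 were called higher and 6 lower in MEF than in CiPSC (17.9% and 22.4% of all genes), and 19 higher and 3 lower on day 40 than in CiPSC (12.5% and 14.8% of all genes). The shares of all genes include genes at 0 in every CiPSC library, which the 54 members leave out, so the 2 are over unlike sets. MEF and day 40 are 1 library each, so the spread comes from the CiPSC libraries alone. Ifit1 was listed at 180 in MEF, at 162 on day 40 and at 0 in 5 of 6 CiPSC libraries, with 4 in the other. Usp18 was listed at 40, 134 and at 0 in 5 of 6, with 3 in the other. Ifi202b was listed at 270, 64 and 0 to 4, and Ifi27 at 269, 223 and 0 to 12, and both were called higher in MEF and on day 40. Ifit3 was listed at 208, 152 and 0 to 2, and Irf7 at 72, 224 and 0 to 6, with differences from day 40 of 6.23 ± 0.59 (adjusted p = 0.0011) and 6.68 ± 0.91 (adjusted p = 0.0046).

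Bst2 was listed at 30 to 131 against 406 in MEF and 1532 on day 40, a difference from day 40 of 4.38 ± 0.77 (adjusted p = 0.011) and from MEF of 2.46 ± 0.77, a call that was lost without replicate 1, 3, 5 or 6 (adjusted p up to 0.0803). Stat2, at 68 to 210 against 358 and 506, was not called in either comparison. Irf9 was called against day 40 alone, by 1.35 ± 0.36 (adjusted p = 0.038), a call lost without replicate 1, 3, 5 or 6 (up to 0.0717).

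The sensors showed wide spread among CiPSC libraries: Ifih1 was listed at 1, 26, 2, 1, 15 and 18, against 105 in MEF and 151 on day 40, and was not called. Ddx58, the sensor RIG-I, was listed at 25 to 96 against 366 and 368, a difference of 2.54 ± 0.69 from each. Its call against MEF was lost without replicate 1 or 5 (adjusted p up to 0.0601), and that against day 40 without replicate 1, 2, 3, 4 or 5 (up to 0.0793). Irf3, which is constitutive in most cells, was listed at 124 to 169 in CiPSC, 150 in MEF and 169 on day 40 and was not called. Irf1 was lower than MEF by 1.50 ± 0.15 (adjusted p = 7.4e-04), at 74 to 94 against 249. Gbp2 was listed at 1 to 2 in CiPSC, 134 in MEF and 49 on day 40. Oasl2, at 3 to 42 in CiPSC, 70 in MEF and 820 on day 40, was called against day 40 alone, by 5.89 ± 1.23 (adjusted p = 0.019).

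A few members stood higher in CiPSC than in MEF, among them Ifitm1, Ifitm2, Ifitm7, Oas1a and Isg20l2. Ifitm1 was listed at 13 in MEF, 303 on day 40 and 540, 1108, 522, 390, 570 and 506 in CiPSC, with MEF against CiPSC at -5.36 ± 0.50 (adjusted p = 5.2e-04), and it was not called against day 40. Ifitm2 was listed at 736, 574 and 912 to 1116, with MEF against CiPSC at -0.50 ± 0.12 and day 40 against CiPSC at -0.86 ± 0.12 (adjusted p = 0.02 and 0.005). Ifitm3, at 1468, 770 and 819 to 1013, was higher in MEF by 0.71 ± 0.12 (adjusted p = 0.0052). Oas1a, at 42, 140 and 100 to 318, was lower in MEF by -1.93 ± 0.58 (adjusted p = 0.041), a call that was lost without replicate 1, 3, 4 or 6 (up to 0.0768).

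Isg20l2, a nucleolar exonuclease that shares a name and a domain with Isg20, was listed at 173 in MEF, 242 on day 40 and 342 to 458 in CiPSC, lower in MEF by -1.22 ± 0.15 (adjusted p = 0.0014). Irf5, at 62 in MEF and 7 to 16 in CiPSC, was listed at 0 on day 40. Ifnk was listed at 74 on day 40 and at 0 in every CiPSC library. The MEF library carried macrophage markers, with a summed level of 5553 against 356 to 706 in CiPSC and 12 of 14 called higher. Lyz2 was listed at 1686 in MEF and at 0 in CiPSC, and Tyrobp at 144 and 0. On day 40 the macrophage markers summed to 226, with 2 called higher than in CiPSC and 1 lower. Those higher were Cd68, at 148 against 24 to 57, and Lyz2, at 4 against 0, and Laptm5 was lower, at 12 against 283 to 620. Csf1r, at 39 against 1 to 12, was not called (adjusted p = 0.0513), and Tyrobp, C1qa, C1qb and C1qc were at 0. The part of such cells in the MEF and day 40 values was not tested.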

How the data were processed

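The deposited table gives whole-number scores per gene for 26 libraries. Its name calls them CPM, but the scores share one distribution across libraries, so they were treated as scores that the authors had normalized between libraries and rounded. The name also says that the table was filtered, and the rule of that filter is not known here. The tools were bcl2fastq, Bowtie2 and RSEM and the build mm10, per the submitters' processing notes, which give no versions. Depth is unknown, and no count test was used. Values were analysed as log2(score + 1) with limma 3.58.1 in R 4.3.3, for genes with a mean of at least 1 in the libraries of a fit, with an intensity trend, day as a block between courses, and Benjamini-Hochberg adjustment over all genes tested. The fitting script was tested on simulated data.

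The members and the lists were chosen with earlier results of these data known. The members named in every comparison included Stat2, Irf9, Irf1, Irf3, Irf7, Isg15, Ifit1, Ifit3, Ifih1, Ddx58, Oasl2, Gbp2, Bst2, Ifitm1, Ifitm2, Ifitm3 and Usp18. Beside them came the 6 largest rises and falls among called members and, outside the families, those with the 3 smallest p-values in each list. Others named were chosen after their values were seen. Some members are counted but not reported here by name or plotted by name. Positions come from GENCODE M21 (GRCm38), and promoter windows from RefSeq (GRCm38.p6). The 6 CiPSC libraries shared 9.18% to 14.3% of values exactly, and none was a copy of another. Alternatives changed the pseudocount (5), the filter (none, or a mean of 5), the trend, the block, the libraries fitted and single days or CiPSC libraries left out. Endothelial and primitive endoderm marker sums were computed too: endothelial sums were 73 to 297 minus Chir, 64 to 454 minus Brdu and 237 to 441 in the full course, and primitive endoderm sums reached 11312 in the full course and at most 963 minus Brdu and 855 minus Chir.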

Additional observations from a re-analysis of the deposited data

Results flagged for a closer look

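Among the 52 members tested over the 6 CiPSC libraries, 8 had a library apart from the rest, judged by the gap to the nearest library divided by the range of log2(score + 1), with a limit of 0.625. Chance flags about 1 in 20 groups. The ratio was 1 for Gbp8, listed at 24 in replicate 4 and at 0 elsewhere. For Ifi204 it was 0.826, with 0 in replicate 6 and 32 to 68 elsewhere. For Gbp2b it was 0.783, with 12 in replicate 5 and at most 2 elsewhere. For Irf1 it was 0.724, with 74 in replicate 5 and 88 to 94 elsewhere. For Irf7 it was 0.644 (6 in replicate 2) and for Ifitm1 0.637 (1108 in replicate 2). Ifit3 and Ifit3b both gave 0.631, with the same scores in each library, 0 in replicate 3 and 1 or 2 elsewhere.

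The course without Brdu differed from the full course in its change over time for 16 results. For Gbp8 the slope per 10 days differed by -1.95. The step from days 12 to 22 to days 30 to 40, less that of the full course, was -6.14 for Oas1g, -4.86 for Gbp8, -4.24 for Oas2, -3.53 for Oas3, -3.08 for Irf8, -2.82 for Ifi27l2b, -2.65 for Oas1a, -2.64 for Ifitm10, -2.58 for Irf7, -2.40 for Isg20, -2.24 for Oasl2, -1.93 for Gbp9, -1.32 for Ifih1 and -1.07 for Ifi203. For Ifi30 it was 1.67.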

How the results depend on the processing

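Of 1829 values of single members under alternative settings, 1699 kept their side of the threshold, 116 no longer passed it and 14 came to pass it. None changed sign while called. Values called in neither fit could change sign and still count among the 1699. Minus Brdu against the full course, Ifit1 ranged from -0.665 to 0.0897 with 1 day left out. Minus Brdu against the full course gave 7 members higher and 2 lower on days 6 to 30 alone; leaving out 1 day gave 10 to 18 higher and 7 to 16 lower. Minus Chir against the full course gave 10 higher with no filter on low values and 10 with no intensity trend, and 2 lower with no day block and 3 lower in 1 fit over 19 libraries; leaving out 1 day gave 0 to 23 higher and 0 to 3 lower. Minus Chir against minus Brdu gave 22 to 29 higher and 3 to 7 lower with 1 day left out. The full-course trend gave 3 to 7 higher and 1 to 4 lower with 1 library left out, and the step test gave 13 higher and 1 lower. The difference in trend gave 2 lower at a pseudocount of 5 and 0 with a mean of at least 5, 0 to 2 higher and 0 to 4 lower with 1 day left out, and 1 higher and 15 lower as a step. With days 36 and 40 as the group against CiPSC, 40 were higher and 5 lower. The cause was not tested for any of these, beyond the fewer libraries in the fits that leave one out. Depth is unknown, so the limit of detection behind a score of 0 is too. The comparisons between courses were paired by day. Without the day block, minus Brdu against the full course gave 12 higher and 12 lower, minus Chir against the full course 19 higher, and minus Chir against minus Brdu 25 higher and 4 lower. The labels give no replicate numbers to pair by.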
